A study of Homo sapiens with 2 samples.

Results

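An interaction that joins a promoter to a distal region, with no promoter of another gene on the way, is a simple form that an enhancer-promoter contact can take. The rule that chose the interactions described here used position alone. Exactly 1 of the 2 bins held a transcription start site of a protein-coding gene, the other bin (the distal bin) lay outside the body of that gene, and no start site of another protein-coding gene lay between the bins. Other start sites of the same gene could lie between the bins, and distances run from the promoter bin of the interaction. Start sites were those of protein-coding transcripts in GENCODE release 44 on hg38. Of the 49245 interactions in the list, 1187 (2.41%; Wilson 95% interval, 2.28 to 2.55%) met the rule. Beyond being listed, no measured value entered the rule, but this class was chosen with earlier results of these data known.

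The interactions came from HiChIP with an E2A antibody in HAL-01. This established leukemia line carries t(17;19), which fuses TCF3 to HLF. The cells stably expressed Cas9GFP and had been made wt-TCF3 KO, and the study took TCF3::HLF as the remaining target of the antibody. There were 2 replicates of this single condition and no control group. The authors merged both before interactions were listed, so no value has a replicate error and no p-value between conditions can be given. The cell line is a single model, and per the study's methods the knockout cells were seeded by dilution and the colonies that grew were examined for clonal growth and for loss of wild-type TCF3.

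HiChIP joins a pull-down of the chromatin bound by a protein with ligation of DNA ends that lie close together, so that pairs of bins are seen through the sites of that protein. In this study the antibody pull-down came before the ligation. HLF belongs to the PAR bZIP factors, whose dimers bind a palindromic 8-base site, and TCF3::HLF keeps the HLF DNA-binding domain. An enhancer can act on a promoter far away on the same chromosome, and the gene it acts on need not be the nearest one.

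The contact count is the number of read pairs that join the 2 bins of 5 kb each, and the sumCC is its sum over a merged group of neighboring bin pairs. The same sumCC is repeated on every line of a group. Counts were not normalized, and the intervals given below cover counting error only. Copies of read pairs were not removed, so read pairs are not all independent and the Poisson intervals can be too narrow. For the median contact count of 25, an exact Poisson 95% interval runs from 16.2 to 36.9, and for the lowest, 11, from 5.49 to 19.7. The contact counts of the 1187 interactions add up to 33569.

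The HLF motif was searched as TTACGTAA or TTATGTAA on both strands. The first form reads the same on both strands, and the second reads TTACATAA on the other strand. The windows of 100 bases shown here are from the plus strand of hg38, with the motif in capitals. They are the distal bins of named interactions that held a motif, in order of contact count down to IRF8, followed by the strongest MEF2C and CD44 interactions. The windows of DNAJC10, TOB1, MBNL2 and IRF8 lay in no annotated gene. That of B3GNT7 was intronic in ARMC9, and those of DHRSX with ZBED1, HIF1A, CHD2 and CD44 were intronic in noncoding RNA genes. The MEF2C window touched an exon of the noncoding MEF2C-AS1.
DNAJC10, distal bin, chr2:182668900-182668999: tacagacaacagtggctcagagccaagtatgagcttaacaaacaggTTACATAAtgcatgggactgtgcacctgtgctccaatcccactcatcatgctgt
TOB1, distal bin, chr17:50931260-50931359: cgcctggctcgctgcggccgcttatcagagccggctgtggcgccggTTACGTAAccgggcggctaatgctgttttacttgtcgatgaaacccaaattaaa
B3GNT7, distal bin, chr2:231228882-231228981: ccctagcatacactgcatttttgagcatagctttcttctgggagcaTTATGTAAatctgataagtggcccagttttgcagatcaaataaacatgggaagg
DHRSX and ZBED1, distal bin, chrX:2580460-2580559: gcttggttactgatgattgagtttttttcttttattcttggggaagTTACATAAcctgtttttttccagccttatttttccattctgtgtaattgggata
HIF1A, distal bin, chr14:61757940-61758039: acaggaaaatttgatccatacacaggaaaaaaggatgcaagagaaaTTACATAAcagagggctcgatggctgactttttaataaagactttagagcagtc
CHD2, distal bin, chr15:92832629-92832728: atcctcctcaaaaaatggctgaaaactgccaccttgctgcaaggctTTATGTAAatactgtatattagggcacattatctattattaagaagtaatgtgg
MBNL2, distal bin, chr13:97109945-97110044: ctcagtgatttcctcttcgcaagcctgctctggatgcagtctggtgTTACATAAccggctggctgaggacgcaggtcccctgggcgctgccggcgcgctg
IRF8, distal bin, chr16:85838565-85838664: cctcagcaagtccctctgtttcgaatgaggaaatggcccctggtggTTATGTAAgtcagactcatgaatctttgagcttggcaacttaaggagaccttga
MEF2C, distal bin, chr5:88940891-88940990: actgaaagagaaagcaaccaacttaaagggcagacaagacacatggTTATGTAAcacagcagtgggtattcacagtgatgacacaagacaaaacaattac
CD44, distal bin, chr11:35043947-35044046: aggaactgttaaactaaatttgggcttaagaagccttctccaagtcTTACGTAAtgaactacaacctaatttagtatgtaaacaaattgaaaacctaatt

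The next windows are from promoter bins of genes with many interactions and were chosen after the values had been seen. One window is shown for each gene. The NR3C1 bin held 2 motifs, and the one not shown lay 10 bases from a start site, in a window that touched an exon. The motif shown lay 606 bases from the closest start site of NR3C1, 1536 bases from that of SLIT2 and 396 bases from that of MEF2C. The NR3C1 and SLIT2 windows lay in no annotated gene, and the MEF2C window was intronic.
NR3C1, promoter bin, chr5:143436072-143436171: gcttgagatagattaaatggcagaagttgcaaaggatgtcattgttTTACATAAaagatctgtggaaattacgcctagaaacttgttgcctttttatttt
SLIT2, promoter bin, chr4:20250323-20250422: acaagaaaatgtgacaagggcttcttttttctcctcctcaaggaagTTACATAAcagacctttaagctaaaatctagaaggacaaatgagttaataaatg
MEF2C, promoter bin, chr5:88884918-88885017: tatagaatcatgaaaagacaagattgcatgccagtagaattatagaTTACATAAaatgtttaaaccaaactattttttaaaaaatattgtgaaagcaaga

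The promoter-distal interactions were shorter than most of the list. Their median distance was 125 kb (order-statistic 95% interval, 120 to 135), with the middle 50% between 75 and 250 kb. Distances between promoters and distal bins past another promoter had a median of 335 kb (325 to 350; n = 5423), those between promoters and the body of the same gene a median of 85 kb (80 to 90; n = 822), and those between 2 promoters a median of 190 kb (165 to 210; n = 545). The rule itself limits the distance, because a long path is more likely to meet another promoter. Only 21 interactions (1.77%) spanned more than 1 Mb, against 17.1% of those past another promoter. A total of 1024 (86.3%; 84.2 to 88.1%) were single bin pairs with no merged neighbor.

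**Figure D1:**
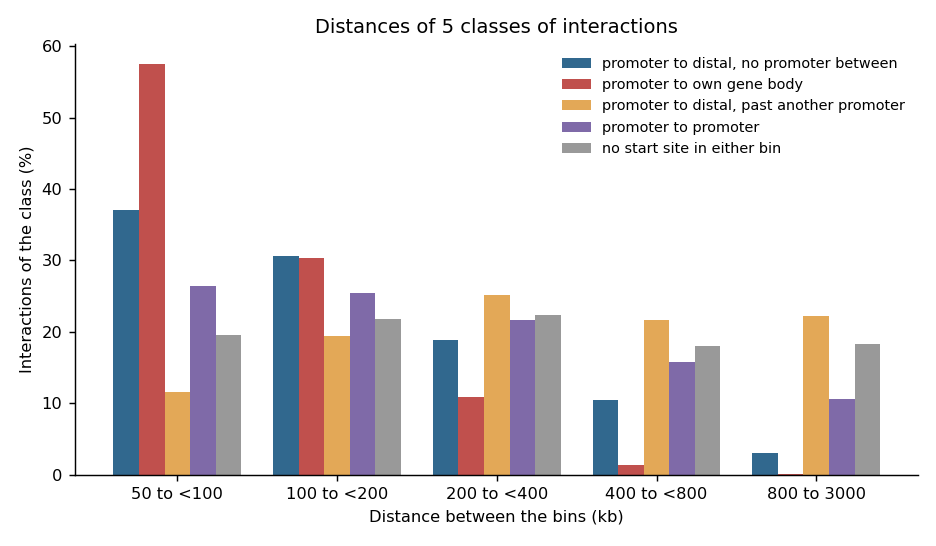
Share of each class of interactions (y axis, percent of the class) in 5 ranges of distance between the bins (x axis, kb). Of the promoter-distal interactions with no promoter between (blue), 37.1% were shorter than 100 kb and 3.03% reached 800 kb or more, against 22.2% of those past another promoter (yellow).

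Contact counts changed little with class once the distance was taken into account. The median was 25 (24 to 26) over all 1187, 24 over the whole list, and 27 (26 to 28) for interactions within a gene body. Between 50 and 100 kb, the median was 26 (25 to 28) with no promoter between and 26 (25 to 27) past another promoter, and between 200 and 400 kb it was 24 for both. Between 100 and 200 kb, 7.71% of the direct interactions (Wilson 95% interval, 5.39 to 10.9%) had a contact count of 50 or more, against 6.02% (3.68 to 9.70%) within a gene body, 3.88% (2.88 to 5.23%) past another promoter and 3.75% (3.38 to 4.17%) where neither bin held a start site. Between 50 and 100 kb, the share was 7.50% (5.39 to 10.4%) for the direct interactions, 10.4% (7.94 to 13.5%) within a gene body and 5.28% (3.78 to 7.32%) past another promoter, and the interval of the direct interactions overlapped both others. Over all distances, 71 of the 1187 (5.98%) reached 50. Each contact count was also divided by the median of all listed interactions within 10% of the same distance. By this ratio, 212 of the 1187 were at 1.5 times or more and 11 at 3 times or more.

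**Figure D2:**
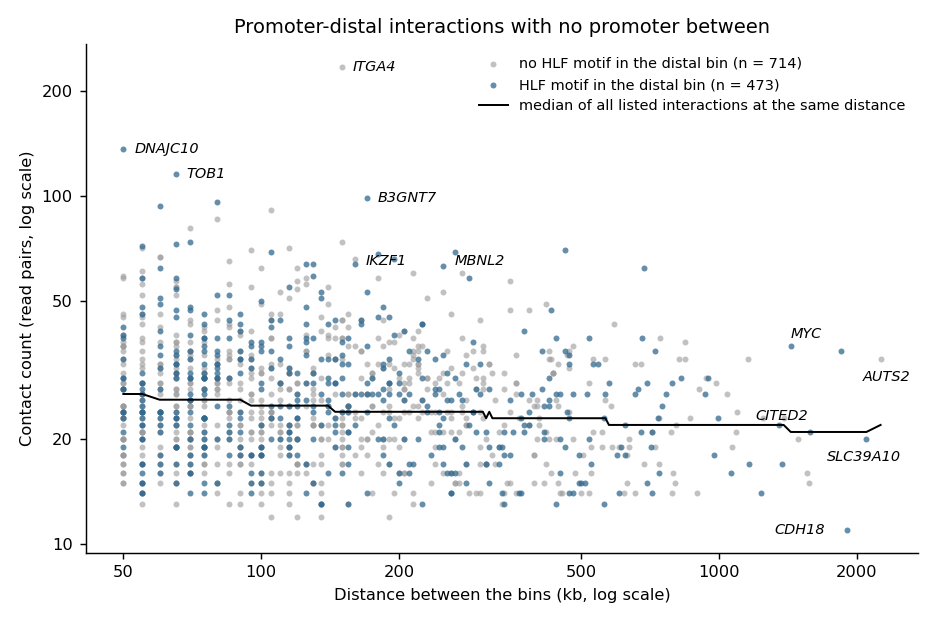
Contact count (y axis, read pairs, log scale) against distance (x axis, kb, log scale) for the 1187 interactions, 1 point each, with the median of all listed interactions at the same distance as a line. Blue points have an HLF motif in the distal bin (473) and gray points do not (714), and both lie around the line, with ITGA4, DNAJC10 and TOB1 at the top.

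The 10 interactions with the largest contact counts ran from 74 to 235 and spanned 50 to 170 kb. At their head was ITGA4, the alpha subunit of an integrin that anchors leukocytes. Its contact count of 235 (Poisson 95% interval, 206 to 267) was 9.79 times the median at that distance, and its distal bin took part in 22 interactions. DNAJC10, a reductase of the endoplasmic reticulum, had 137 (115 to 162) over 50 kb. TOB1, an antiproliferative protein, had 116 (95.9 to 139) over 65 kb. That of TOB1 was the only single bin pair among the 10. B3GNT7, a glycosyltransferase, had 99 (80.5 to 121) and the largest sumCC of the 1187, 1646, with its distal bin inside ARMC9. DHRSX and ZBED1, which share a promoter bin, had 96 (77.8 to 117), and HIF1A, the oxygen-regulated transcription factor, had 94 (76.0 to 115).

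The other 4 of the 10 were LMLN (91), LONRF1 (86), IFT57 (81), a protein of intraflagellar transport, and CHD2 (74), a chromatin remodeler. Within the 10, 8 distal bins lay upstream of the gene and 2 downstream, 6 distal bins and 5 promoter bins held an HLF motif, and only the ITGA4 pair held it in neither bin. The gene joined was the one with the nearest start site in 5 of the 10. The HIF1A distal bin lay 2.42 kb from a start site of SNAPC1, and the IFT57 distal bin 1.53 kb from one of HHLA2. By P value, PDK4, a kinase that inhibits pyruvate dehydrogenase, entered the first 10 in place of IFT57, with a contact count of 71 over 55 kb. By sumCC, B3GNT7 and ITGA4 (802) were followed by MBNL2, a splicing regulator (511), YPEL2 (508) and LMLN (444).

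The 5 longest interactions joined AUTS2 over 2255 kb, SLC39A10 over 2100 kb, CDH18 over 1905 kb, MYC over 1845 kb and CITED2 over 1580 kb. SLC39A10 is a zinc transporter, CDH18 a cadherin, and CITED2 a coregulator of transcription. Their contact counts were 34 (23.5 to 47.5) for AUTS2, 20 (12.2 to 30.9) for SLC39A10, 11 (5.49 to 19.7) for CDH18, 36 (25.2 to 49.8) for MYC and 21 (13.0 to 32.1) for CITED2. The medians of the list at these distances were 21 and 22. By these intervals, MYC and AUTS2 were above them and CDH18 below, while SLC39A10 and CITED2 lay within counting error of them. With copies kept, the intervals can be too narrow, and the lower limit of AUTS2 (23.5) was close to the median. The MYC interaction reached a distal bin that took part in 18 interactions and overlapped a noncoding RNA gene. The AUTS2 distal bin lay 1083 kb from the closest AUTS2 start site, which was not in the promoter bin of that interaction.

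Where the distal bin lay was close to what the free space around each promoter allowed. For every promoter bin, all distal bins that the rule would accept were listed, between 50 kb and 3 Mb away, and each interaction was set beside the acceptable bins of the same promoter bin within the same range of distances (median of 20 bins). The gene joined had the nearest start site in 549 interactions (46.3%; Wilson 95% interval, 43.4 to 49.1%), and in 43.3% of the acceptable bins. The distal bin lay upstream in 704 of the 1134 interactions with genes on 1 strand (62.1%; 59.2 to 64.9%), beside 60.4% of the acceptable bins. It lay outside every protein-coding gene in 820 (69.1%; 66.4 to 71.7%), beside 69.8%. Of the 1187 distal bins, 367 lay in the body of another protein-coding gene. Another 322 overlapped a long noncoding RNA gene only (27.1%; 24.7 to 29.7%), beside 26.6% of the acceptable bins of the same promoter bins and distances. The other 498 overlapped neither (42.0%; 39.2 to 44.8%), beside 43.1%. Over the acceptable bins of all genes at all distances, these 2 shares were 21.5% and 49.4%.

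The HLF motif in the distal bin stood apart from this pattern. It was present in 473 distal bins (39.8%; 37.1 to 42.7%), and in 30.1% of the acceptable bins of the same promoter bins and distances. The share was above that of the acceptable bins in each of the 5 ranges of distance, from 38.2% against 27.8% between 50 and 100 kb to 41.7% against 36.8% at 800 kb and more, where 36 interactions gave an interval of 27.1 to 57.8%. In the bins 25 kb to either side of the distal bins that were in no listed interaction, the share was 30.3% (28.2 to 32.5%; n = 1790), and over all 5-kb bins of chromosomes 1 to 22 and X it was 30.6%. The motif share was not particular to these interactions. In distal bins past another promoter it was 37.4% (36.1 to 38.7%), and in those within a gene body 41.85% (38.5 to 45.25%). The median G+C content was 41.3% in the distal bins and 41.2% in the flanking bins.

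**Figure D3:**
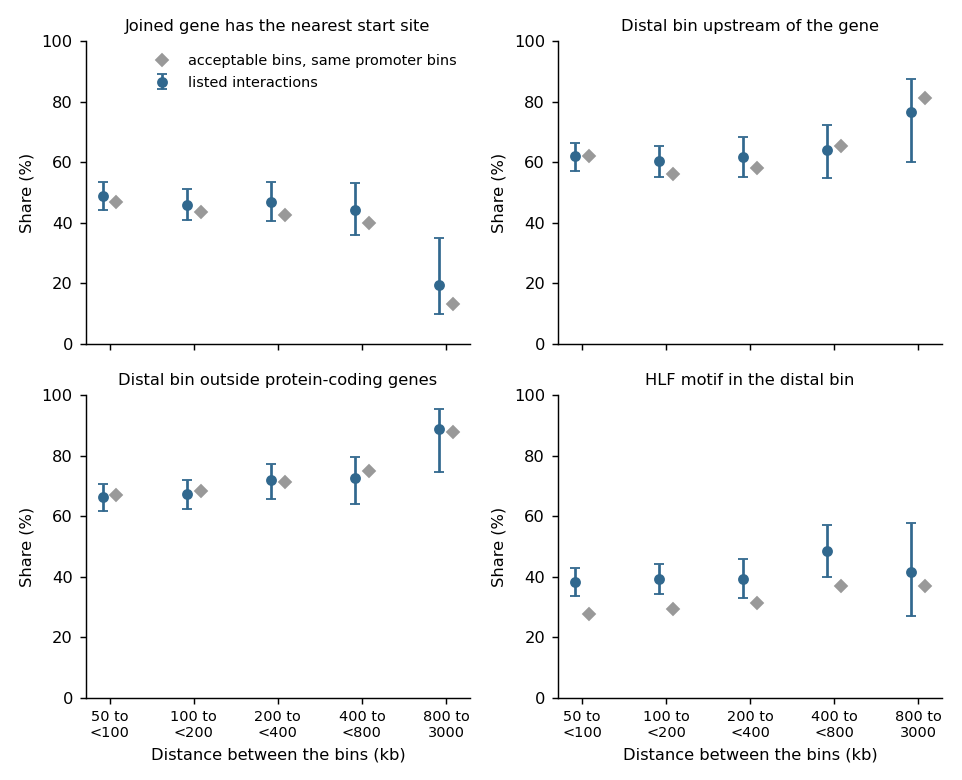
Share of interactions (y axis, percent) with 4 features of the distal bin, in 5 ranges of distance (x axis, kb). Blue points with Wilson 95% intervals are the listed interactions and gray diamonds the mean over all bins that the rule would accept for the same promoter bins; the points lie close together for the first 3 features, and for the HLF motif the blue points are the higher ones in all 5 ranges.

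Promoter bins held the motif in 522 of the interactions (43.98%; 41.2 to 46.8%). Counted once each, 274 of the 761 promoter bins did (36.0%; 32.7 to 39.5%), against 21.8% of all bins with a protein-coding start site in the genome. With each interaction counted, the promoter bin held it in 39.65% of those past another promoter and 41.6% of those within a gene body. Both bins held a motif in 195 interactions, the promoter bin alone in 327, the distal bin alone in 278 and neither in 387. The median contact count was 26 with a motif in both bins (24 to 28) and 24 with a motif in neither (23 to 26), so the intervals overlapped. The rarer form TTACGTAA was found in 48 distal bins (4.04%; 3.06 to 5.32%), against 1.28% (0.858 to 1.92%) of the flanking bins. Distal bins past another promoter held this form in 4.48%, and those within a gene body in 4.745%.

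The motif was more common in the bin with more interactions, whether that was the promoter or the distal bin. A higher motif share in bins with many interactions was already known from earlier results of these data. The split below is therefore a description and no independent support. In 710 interactions the promoter bin took part in more listed interactions of any class, with a median of 9 against 1 for the distal bin. In 455 the distal bin did, with a median of 8 against 1. In the first kind, the promoter bin held an HLF motif in 54.9% (51.2 to 58.5%) and the distal bin in 30.3% (27.0 to 33.8%), the latter beside 30.2% of the acceptable bins. In the second kind, the promoter bin held it in 27.5% (23.6 to 31.8%) and the distal bin in 54.9% (50.4 to 59.5%), beside 30.1% of the acceptable bins. The 27.5% of the promoter bins was above the 21.8% of all bins with a protein-coding start site. Many promoter bins entered the first kind more than once, so the interval of its 54.9% is too narrow. Counted once each, 49.0% of these promoter bins held a motif (43.6 to 54.55%; n = 314). Of the distal bins of the second kind, counted once each, 54.0% did (49.2 to 58.6%; n = 428). Most genes had a single interaction and so could have 1 kind only. Of the 210 genes with more than 1, 27 had both kinds, 150 the first only and 33 the second only. The authors listed interactions with peaks of the pull-down as reference. These peaks were not used here, so which of the bins held a peak is not known. The contact counts of the 2 kinds (medians 25 and 26) and their distances (medians 135 and 120 kb) were close.

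**Figure D4:**
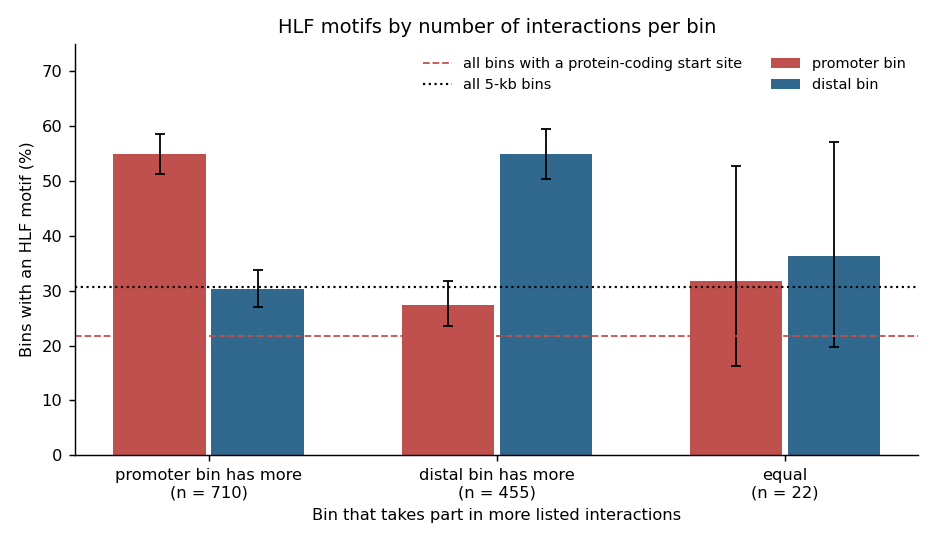
Share of promoter bins (red) and distal bins (blue) with an HLF motif (y axis, percent, with Wilson 95% intervals), by which bin took part in more listed interactions (x axis). Each interaction is counted, so a bin can enter more than once. The bin with more interactions held the motif in 54.9% of both kinds (49.0% of promoter bins and 54.0% of distal bins when counted once each). Its partner held it in 30.3% (distal bins), near the dotted line for all bins of the genome (30.6%), or 27.5% (promoter bins), above the dashed line for all bins with a protein-coding start site (21.8%).

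Of the first kind is CX3CR1, a chemokine receptor, whose promoter bin held 2 motifs and took part in 12 interactions. Its distal bin 50 kb downstream, with a contact count of 59 (44.9 to 76.1), was in no other interaction and held no motif. Of the second kind is B3GNT7, whose promoter bin was in no other interaction and held no motif, while the distal bin held 1 and took part in 15 interactions. The sequence core of CTCF, the protein that holds many loops, was rare in both bins. It was found in 3.12% of distal bins (2.27 to 4.27%), against 2.23% of the flanking bins (1.64 to 3.03%) and 1.58% of all acceptable bins. In promoter bins it was found in 2.19% (1.499 to 3.19%). Counted once each, 2.89% of the promoter bins held it (1.92 to 4.34%), against 3.32% of all bins with a protein-coding start site. In 0 interactions was it in both bins at once, which shares this low would make rare in any case. Where a distal bin held cores of 1 orientation, they pointed toward the promoter in 27 of 36 (Wilson 95% interval of the share, 58.9 to 86.3%), in 10 of 15 (66.7%, interval 41.7 to 84.8%) within a gene body, and in 101 of 191 (52.9%; 45.8 to 59.8%) past another promoter. In promoter bins the cores pointed toward the distal bin in 17 of 26 (65.4%, interval 46.2 to 80.6%).

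The interactions fell on 729 genes, which is 5.65% of the 12903 genes with at least 1 acceptable distal bin. Genes with more free space had them more often. Among the genes with 1 to 6 acceptable bins, 1.35% (1.02 to 1.80%) had an interaction, and among those with 49 or more, 9.73% (8.75 to 10.8%). A single interaction was found for 519 genes and more than 1 for 210 (28.8%; 25.6 to 32.2%), with 5 or more for 35. The promoter bin held the 5-prime end of the gene record in 632 interactions (53.2%; 50.4 to 56.1%) and another annotated start in the others. By chromosome, the interactions made up 4.10% (3.44 to 4.89%) of the list on chromosome 5, with 118, and 1.48% (0.803 to 2.69%) on chromosome 19, with 10.

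Some genes with many interactions are described here. MEF2C, a transcription factor of B-cell and myeloid development, had 34 interactions from 5 promoter bins at its internal start sites. They spanned 120 to 1575 kb, with contact counts from 14 to 40, 28 of them upstream, and 18 of the distal bins held an HLF motif. SLIT2, the secreted ligand of ROBO receptors, had 17 from a single bin. All 17 ran upstream over 65 to 1370 kb, with contact counts from 14 to 53 and the largest at 135 kb. Its distal bins lay apart from each other, in 17 separate stretches. For 16 of them the nearest protein-coding start site was one of SLIT2, while 15 overlapped a long noncoding RNA gene.

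NR3C1, the glucocorticoid receptor, had 13, with 12 of them upstream at 70 to 350 kb and 1 downstream, and with contact counts from 16 to 33. Its promoter bin held 2 motifs and took part in 29 interactions, while 4 of the 13 distal bins held a motif. ZNF608, a zinc finger protein, had 12, of which 5 ran upstream and 7 downstream, at 55 to 1095 kb and with contact counts from 14 to 43. The median contact count was 21 for SLIT2, 22 for ZNF608, 23.5 for MEF2C and 24 for NR3C1. Their median distances were, in that order, 655, 295, 452.5 and 210 kb. The median of all listed interactions was 24 between 200 and 400 kb and 23 between 400 and 800 kb.

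**Figure D5:**
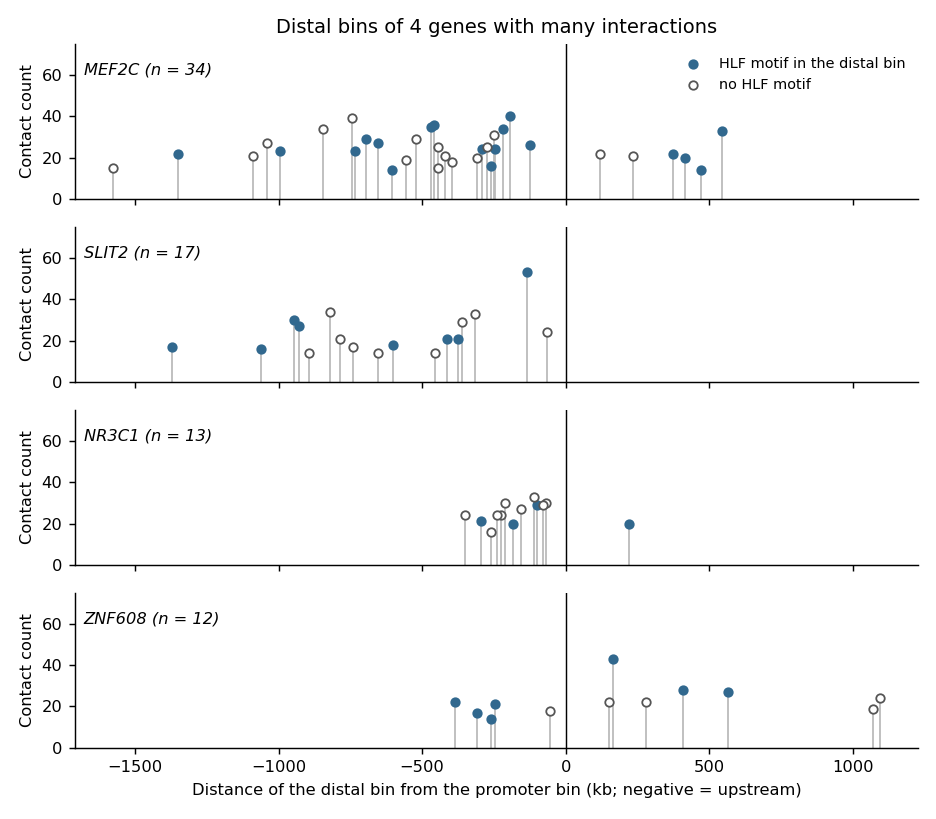
Contact count (y axis, read pairs) of each interaction of MEF2C, SLIT2, NR3C1 and ZNF608, against the distance of the distal bin from the promoter bin (x axis, kb; negative is upstream of the gene). Filled points have an HLF motif in the distal bin, and SLIT2 and NR3C1 reach mainly upstream and ZNF608 to both sides.

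Few distal bins were shared within this class, and the rule itself limits sharing between genes. On each side of a distal bin, the start site of a nearer gene excludes genes farther away. The low sharing is therefore no measure of how many promoters a distal bin contacts. The interactions used 1155 distal bins, of which 29 were in more than 1, and 8 of these served different genes or groups of genes. At most 3 interactions of this class met in a distal bin. The bin at chr4:143220001-143225000, in USP38, joined 3 promoter bins of GAB1, an adapter of receptor signaling, with contact counts from 27 to 64. That at chr3:195005001-195010000 joined 3 promoter bins of XXYLT1, a xylosyltransferase, with contact counts from 27 to 37. Both held 2 HLF motifs and took part in 25 and 21 interactions. The bin at chr11:35040001-35045000 joined 2 start sites of CD44, an adhesion receptor for hyaluronan, and 1 of PDHX on its other side, with contact counts from 19 to 34. It held the TTACGTAA shown above. Of the 1155 distal bins, 125 (10.8%) also joined a promoter past another promoter, and 533 (46.1%) a bin without a start site.

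Among 8 gene lists for the leukemia and its lineage, B-lineage transcription factors had the largest share of genes with an interaction, 7 of 20 with an acceptable bin (35.0%; Wilson 95% interval, 18.1 to 56.7%), beside 5.65% over all genes. They were IKZF1, IRF8, MEF2C, SOX4, ARID5B, ZEB2 and FOXP1, and the median of their largest contact counts was 39, beside 27 over all genes with an interaction. A largest count tends to be higher where a gene has more interactions, so these 2 values are not alike. The median contact counts of the same genes, in that order, were 66, 40.5, 23.5, 27, 27, 22 and 21. IKZF1, which encodes the lymphoid factor Ikaros, had a contact count of 66 (51.0 to 84.0) with a bin 160 kb upstream in SPATA48, and the start site closest to that bin was one of ZPBP. IRF8, a factor of B-cell and myeloid cells, had 51 (38.0 to 67.1) with a motif-bearing bin 60 kb upstream. These genes also had more room, with a median of 98 acceptable bins against 18 over all genes, and among all genes with 49 or more bins the share was 9.73%, as given above. MEF2C and SOX4 had 34 and 9 interactions, ARID5B had 7, and ZEB2, FOXP1 and IRF8 had 2 each. All 9 of SOX4, a factor of early B-cell development, came from a promoter bin with 2 motifs, with contact counts from 19 to 39.

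The BCL2 family, the regulators of apoptosis, followed with 3 of 14 (21.4%; 7.57 to 47.6%). BCL2, which protects from cell death, had a contact count of 41 (29.4 to 55.6) over 220 kb, and PMAIP1 and BMF, which promote it, had 27 and 25 over 55 kb each. No HLF motif was found in the distal bins of BCL2 and PMAIP1, and the one of BMF held 1. In the pre-B receptor and B-cell signaling list, VPREB1, a part of the surrogate light chain, had 26 and CD24 had 21, for 2 of 15 genes. Adhesion and surface molecules had 3 of 26, with ITGA4, CD82 (35) and CD44 (34), and stem cell factors had 3 of 30, with LMO2 (38), MYC (36) and ID2 (24). Cytokine and growth factor receptors had 2 of 31, CX3CR1 (59) and TGFBR1 (35). G1 cell cycle genes had 0 of 15 and the PAR bZIP and C/EBP genes 0 of 6, where intervals still reach 20.4% and 39.0%. The lists are short, and intervals other than those of the B-lineage factors and the BCL2 family included the 5.65% of all genes. This is no test of enrichment, because the lists were chosen with earlier results of these data known. The 5.65% is also not matched for the number of acceptable bins.

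The HLF motif was also searched close to the start site. RefSeq promoter windows (GRCh38.p14) ran from 250 bases before to 50 after the start, much shorter than a 5-kb bin. The motif was present in 13 of 1109 windows of genes with an interaction (1.17%; 0.686 to 1.995%) and in 355 of 35116 windows of all genes (1.01%). These shares do not compare with those of the 5-kb bins, and the windows were not limited to the promoter bins of the interactions. Windows of a gene can overlap, as with DHRS12, whose windows held the same motif. Of the 729 genes, 593 matched a RefSeq symbol. The genes with a motif there were ATF7IP, ATP13A3, BANK1, CELF2, CRTAC1, DHRS12, LMNB1, MYBPHL, NDST3, NR3C1, NREP and RNF217. LMNB1, which encodes lamin B1, and MYBPHL carried the form TTACGTAA. A match of letters is a description and no measured binding site.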

How the data were processed

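HiChIP with an E2A antibody was carried out on 2 samples of TCF3-KO HAL-01 cells, which form 1 group. According to the methods and the submitters' notes, the authors trimmed reads with Trim Galore 0.6.6, merged both replicates, aligned to hg38 with BWA, extracted pairs without removing copies, called peaks with MACS2 and listed interactions with FitHiChIP (version not given in the sources used here) at a q-value under 0.01, with bins of 5 kb and distances of 50 kb to 3 Mb. The contact count and sumCC were deposited as raw counts. Both the p-value and the q-value, as deposited, compare a count with that of bins at the same distance, corrected for the coverage bias of the bins. The deposited fraction of significant bin pairs in a group was not used for a result. The deposited bin positions were checked against hg38, with 0 bins past a chromosome end.

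Interactions were classified with GENCODE release 44. Near-identical sequence was counted as 31-mers shared by both bins. Shares have Wilson, medians order-statistic and single counts exact Poisson 95% intervals. The classes, motif scan and intervals were tested on simulated data. The members and gene lists were chosen with earlier results of these data known, among them a higher share of HLF motifs in bins with many interactions. Named were the 10 interactions with the largest contact count, the 10 with the smallest P value, the 5 with the largest sumCC and the 5 longest, 4 of the 5 genes with the most interactions, the distal bins with the most (those tied at 2 interactions were left out), and the 3 genes with the largest contact count in each list. SOX4, ARID5B, ZEB2, FOXP1 and the RefSeq promoters were named after their values were seen. Alternatives covered the start sites used, thresholds on q-value, contact count and distance, the bins counted and the motif. Some genes are not reported here. Scripts ran in Python 3.11.15 with scipy 1.17.1, pyfaidx 0.9.0.4, matplotlib 3.10.9, pandas 2.3.3 and numpy 2.4.6.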

Additional observations from a re-analysis of the deposited data

How the results depend on the processing

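Of 78 values under alternatives, 60 stayed within the interval of the value reported, or within 1.5 times of it for counts. The other 18 moved. The 60 include values that could not move. Leaving out interactions whose bins share 500 or more 31-mers removed 0 interactions, so that alternative repeats the main values and is no check. Distances up to 1 Mb kept 1166 interactions, each distal bin counted once 1155, and leaving out MEF2C 1153. These are most of the interactions, so their values had little room to move. With the start of the gene record only, 776 interactions met the rule, and the share whose gene had the nearest start site was 39.2%. The share outside protein-coding genes was then 54.8% and the share of genes with more than 1 interaction 25.5%. With every transcript of protein-coding genes, the share whose gene had the nearest start site was 50.6% and the share outside protein-coding genes 83.2%. The median contact count was 30 with a q-value under 1e-05 and 29 with a contact count of at least 20, as these thresholds remove low counts. The share of distal bins with a motif was 4.04% for TTACGTAA alone, 36.9% for TTATGTAA alone and 59.9% for any TTANGTAA. Chosen after seeing the data, merged groups of more than 1 bin pair left 163 interactions, with a median distance of 110 kb, a median contact count of 36, a motif in 46.01% of distal bins, 64.4% outside protein-coding genes and 18.2% of genes with more than 1 interaction. With each bin counted once, also chosen after seeing the data, 49.0% of the promoter bins with more interactions than their partner held a motif. Apart from thresholds and the motif form, the cause of these shifts was not tested. No paired analysis was possible because the replicates were merged and form 1 group, and for the same reason no replicate could be left out. The main limits are the merged list, the 5-kb bins, which do not place a contact on a motif, and the distance minimum of 50 kb, which leaves out closer contacts.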
